A study of Mus musculus with 8 samples.

Results

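A set of 8 genes linked to type 2 immunity and to eosinophils, mast cells and basophils were followed in myeloid cells from tumour-bearing lungs: Il13, Ccl24, Ccr3, Il1rl1, Il3ra, Siglecf, Gata2 and Hdc, which are 8 of the 754 genes on the panel. They were chosen by name, with the differences between treatments in these same samples already known, so those differences are given as a description with their errors and without p-values. All 8 were on the panel and all 8 passed the filter on low values used for the fit over the panel. Levels were counted with NanoString nCounter, a method that counts barcoded probes on RNA molecules with no amplification step. The cells came from 24 Balb/c mice carrying grafts of 4T1, a mouse breast cancer line known to seed lung metastases. The DSHN group received the NR0B2 agonist DSHN at 10 mg/kg daily for 7 days, and the DMSO group received DMSO as placebo on the same schedule, both from 10 days after the graft and with the same dose stated in the labels; ages are not given there. Each sample pooled the lungs of 3 mice of 1 treatment, and cells were taken out with CD11b and CD11c beads, so that each sample is a mix of all cells the beads hold. This gave 4 DSHN and 4 DMSO samples. All mice carried the tumour graft.

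Type 2 immunity is the arm of the immune system that acts against helminths and in allergy. Interleukin 33, released by damaged epithelium, acts through its receptor Il1rl1 (ST2) on innate lymphoid cells, mast cells and T helper 2 cells, which then make interleukin 13, and interleukin 13 induces eotaxins such as Ccl24 in macrophages. Eotaxins attract eosinophils through Ccr3. In the mouse lung, the lectin Siglecf is carried by eosinophils and by alveolar macrophages, and beads against CD11b and CD11c can take up both.

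The samples differed in depth and in background, and this sets what can be read from each gene. Recovered counts summed over the gene probes were 123700 in DSHN 1 and between 533000 and 923700 in the other 7 samples. A value was called above background where its count was over a limit set in each sample by its 8 negative-control probes, their mean plus 2 SD. The limit was 17.9 to 40.1 counts in DSHN samples and 21.0 to 26.9 counts in DMSO samples. After scaling to 4 housekeeping genes (Oaz1, Tubb5, Ppia and Rpl19), this limit lay at 7.69 in DSHN 1 and at 3.77 to 5.11 in the other samples (log2), so in DSHN 1 a count at background reads 7.69. The negative-control mean on this scale was 4.25 ± 1.48 in DSHN and 3.12 ± 0.52 in DMSO samples (SD, n = 4 each; difference 1.13, exact two-sided permutation p = 0.143, where 0.0286 is the smallest that 70 assignments allow). DMSO 1 also stood apart, with a spike-in factor of 6.83 against 0.604 to 1.17 elsewhere. The differences of the 8 genes are therefore given with all samples and without DSHN 1 and DMSO 1. The labels call the cells dendritic. Of 9 dendritic cell markers on the panel, 4 were above background in all 8 samples, Itgax, H2-Ab1, H2-Eb1 and Cd74. Of the others, Ccr7 was above it in 7 samples, Lamp3 in 5, Flt3 in 2, Clec9a in 1 and Xcr1 in 0. Of 7 neutrophil markers, 5 were above it in all 8 samples and 2, Mpo and Elane, in 0.

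Of the 32 member values in each group, 26 were above background in DSHN and 28 in DMSO samples, beside 63.3% of all gene values in DSHN and 70.6% in DMSO samples. In DSHN 1 only Siglecf and Hdc, 2 of the 8 genes, were above it, and in DMSO 1 there were 5. In DSHN 2, 3 and 4 all 8 genes were above background, as they were in DMSO 2 and 4, and in DMSO 3 the exception was Il13. Without DSHN 1 and DMSO 1 the counts were 24 of 24 values in DSHN and 23 of 24 in DMSO samples, beside 71.4% of all gene values in DSHN and 72.1% in DMSO samples. Only Siglecf and Hdc were above background in all 8 samples.

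**Figure D1:**
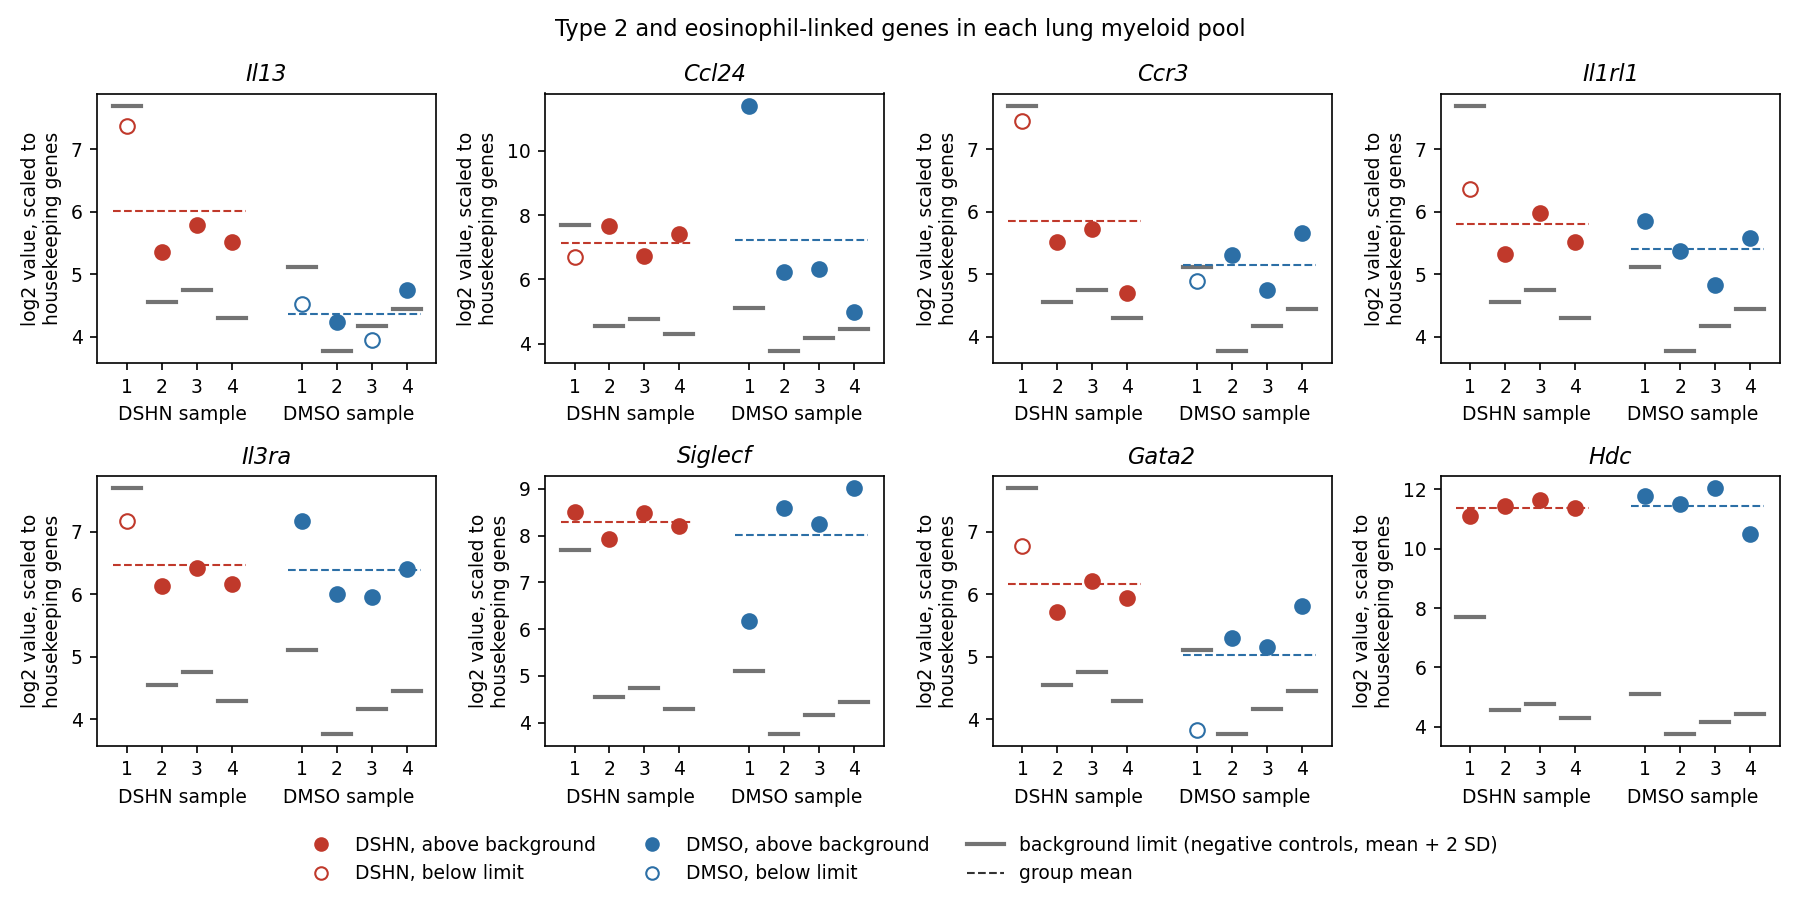
Level of each gene in every sample, as log2 values scaled to the 4 housekeeping genes; DSHN samples 1 to 4 are red, on the left of each panel, and DMSO samples 1 to 4 are blue, on the right. Filled points lie above the background limit of their sample (grey bars), open points lie below it, and dashed lines are group means; in DSHN 1 the limit is at 7.69 and 6 of the 8 genes lie under it.

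Il13, the cytokine interleukin 13 made by innate lymphoid type 2 cells, T helper 2 cells, mast cells and basophils, was the only one of the 8 genes whose groups did not overlap. Its scaled log2 levels were 7.37, 5.36, 5.78 and 5.52 in DSHN 1 to 4, against 4.53, 4.24, 3.94 and 4.75 in DMSO 1 to 4. All 4 DSHN samples were higher than all 4 DMSO samples, but DSHN 1, DMSO 1 and DMSO 3 lay under their background limits, so those 3 values cannot be told from background. The group means were 6.01 ± 0.92 in DSHN and 4.36 ± 0.35 in DMSO samples (SD, n = 4 each), a difference of 1.64 ± 0.48 (log2, SE). The same order was seen in the counts before any scaling, with 32, 46, 48 and 42 in DSHN samples and 18, 29, 19 and 29 in DMSO samples. The 32 counts of DSHN 1 were under its limit of 40.1, and its negative-control mean, at 16.6 counts, was the highest of all samples. The DSHN count nearest to those of the DMSO samples is therefore one that cannot be told from background. The counts of DSHN 2 to 4, at 42 to 48, were also above those of all 4 DMSO samples, at 18 to 29. Counting error alone gave a 95% Poisson interval of 33.7 to 61.4 for the 46 counts of DSHN 2 and of 19.4 to 41.6 for the 29 counts of DMSO 2, and these intervals cover counting error only. On the scaled values, 14 of the 554 genes tested had every DSHN sample above every DMSO sample, which is 2.53%, and 4 genes (0.722%) had the reverse. On unscaled counts the gene was 1 of 2 of the 554 with every DSHN sample higher, which is 0.361%, and 59 of the 554 (10.6%) had every DSHN sample lower. The choice of Il13 used this same contrast, so nothing is read from these shares.

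Among the samples in which the gene could be read, Il13 counts in DSHN 2, 3 and 4 were 1.75, 2.04 and 2.34 times the background limit. They were 1.38 times the limit in DMSO 2 and 1.23 times in DMSO 4. Each limit is that of its own sample, such as 26.2 counts in DSHN 2 and 17.9 in DSHN 4. These ratios therefore give the distance from background and do not compare levels between treatments. The difference was 1.25 without DSHN 1 and DMSO 1, and 1.91 after the negative-control mean was subtracted from the counts. Leaving out 1 sample at a time it ranged from 1.19, without DSHN 1, to 1.86, without DSHN 2. On the deposited values, without housekeeping scaling, it was -0.26, where the median over the 554 genes was -1.87. No genes nearest in pattern are given for Il13, since it was above background in only 5 of 8 samples.

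The promoter of Il13 is shown because a GATA factor, Gata2, is among the 8 genes and GATA factors are known to act on type 2 and mast cell genes. The words searched were AGATAA and AGATAG, with TGATAA and TGATAG as their variants, on both strands, in the 250 bases before each RefSeq start site (GRCm38.p6), and matches are in capitals. The window of Il13, at chr11:53634703-53634952 on the minus strand, held 1 match, 81 bases before the start:
Il13: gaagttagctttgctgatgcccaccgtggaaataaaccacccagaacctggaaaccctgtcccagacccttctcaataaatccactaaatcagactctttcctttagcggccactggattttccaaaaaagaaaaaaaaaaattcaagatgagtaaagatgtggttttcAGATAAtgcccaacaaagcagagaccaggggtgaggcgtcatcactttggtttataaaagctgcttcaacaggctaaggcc
At least 1 such word was found in 26.5% of the 32851 windows of this length, so a match is common and is given as a description of the letters. Of the 8 genes, 7 had a window in the RefSeq table, and 5 of these held a match. Counted as windows, as the 26.5% is, 6 of their 9 held a match. The windows of Siglecf and Gata2 held 0. The genes were chosen by name and are few, so nothing is read from these counts.

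Ccl24, the eotaxin that macrophages make and that draws eosinophils through Ccr3, differed more between single samples than any other of the 8 genes. Its scaled log2 levels were 6.70, 7.68, 6.72 and 7.42 in DSHN 1 to 4, against 11.41, 6.23, 6.33 and 4.98 in DMSO 1 to 4. DMSO 1 was the highest sample and lay 33.8-fold above the next DMSO sample, and DSHN 1, at 20 counts, was under its limit of 40.1. The other counts were 229, 92 and 157 in DSHN 2 to 4, and 2116, 115, 99 and 34 in DMSO 1 to 4. The groups overlapped, and the means of 7.13 ± 0.50 in DSHN and 7.23 ± 2.85 in DMSO samples (SD, n = 4 each) differed by -0.11 ± 1.15 (SE), which is smaller than the spread in DMSO samples. DMSO 1 decides the value: without it the difference was 1.29, and without DMSO 1 and DSHN 1 it was 1.43, with 7.27 ± 0.49 in DSHN and 5.84 ± 0.75 in DMSO samples (SD, n = 3 each). In these 6 samples the groups of Ccl24 did not overlap, as was also the case for Il13. That makes 2 of the 8 genes, beside 7.04% of the 554 genes tested, while 0 of the 8 had every DSHN sample lower, beside 1.99%. Nothing is read from these shares.

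DMSO 1 was set apart by more genes than Ccl24. Against the mean of the other 3 DMSO samples, Ccl24 was 5.57 higher in DMSO 1, the second largest such gap among the 554 genes, for which the median was 0.39. The largest gap was that of Arg1, the arginase of alternatively activated macrophages, at 7.00, and the third was that of Ccl8, a monocyte chemokine, at 5.12. In the same sample the gap was -2.45 for Siglecf and -1.61 for Gata2, which ranked 550 and 533 from the top of the 554.

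The genes whose pattern over the 8 samples lay nearest to Ccl24 were Ccl12 and Ccl8, both monocyte-attracting chemokines, with root mean square distances of 0.55 and 0.61, against a median of 1.72 over the other 553 genes tested. These distances compare log2 levels after each gene's own mean is taken off. Ccl12 stood at 9.69 in DMSO 1, and between 6.18 and 6.67 in DSHN samples and 4.75 and 6.44 in the other DMSO samples. Without DSHN 1 and DMSO 1 the nearest genes were Hbegf, a growth factor of the EGF family, and Arg1, at 0.28 and 0.38. Arg1 was then at 9.22, 8.60 and 9.36 in DSHN 2 to 4, against 8.16, 8.58 and 6.02 in DMSO 2 to 4.

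Ccr3, the receptor for eotaxins on eosinophils, was close to background. Its scaled log2 levels were 7.46, 5.51, 5.72 and 4.71 in DSHN 1 to 4, against 4.89, 5.31, 4.74 and 5.67 in DMSO 1 to 4. The counts were 34, 51, 46 and 24 in DSHN samples and 23, 61, 33 and 55 in DMSO samples, and DSHN 1 and DMSO 1 were under their limits. The groups overlapped. The difference was 0.70 ± 0.55 (SE) with all samples, with means of 5.85 ± 1.16 in DSHN and 5.15 ± 0.42 in DMSO samples (SD, n = 4 each). It rests on DSHN 1, without which it was 0.16, and it was 0.08 without DSHN 1 and DMSO 1. Over the 8 samples the pattern of Ccr3 lay at a distance of 0.48 from that of the negative-control mean, and 33 of 553 genes lay nearer than it. The nearest were Nmb, a neuropeptide gene, at 0.26 and Nectin1, an adhesion molecule, at 0.27. The distance to the negative-control mean without DSHN 1 and DMSO 1 was 0.39, with 123 of 553 genes nearer, and the nearest genes were Tgm2, a transglutaminase, at 0.12 and Itgb7, an integrin chain, at 0.18.
The 250 bases before its RefSeq start at chr9:124021721-124021970, on the plus strand, held 2 GATA words, at 64 and 30 bases before the start:
Ccr3: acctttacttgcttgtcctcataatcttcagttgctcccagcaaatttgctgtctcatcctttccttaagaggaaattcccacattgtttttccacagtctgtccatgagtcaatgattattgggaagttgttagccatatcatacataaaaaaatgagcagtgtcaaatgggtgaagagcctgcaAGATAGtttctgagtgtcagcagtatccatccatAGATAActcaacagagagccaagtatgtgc

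Il1rl1, which encodes the interleukin 33 receptor ST2, had scaled log2 levels of 6.37, 5.33, 5.98 and 5.52 in DSHN 1 to 4, against 5.85, 5.38, 4.83 and 5.59 in DMSO 1 to 4. DSHN 1 was under its limit, at 16 counts, and the other 7 samples were above background, with 42 to 55 counts in DSHN and 35 to 64 counts in DMSO samples. The groups overlapped, and the means of 5.80 ± 0.47 in DSHN and 5.41 ± 0.43 in DMSO samples (SD, n = 4 each) differed by 0.39 ± 0.35 (SE). Without DSHN 1 the difference was 0.20, and without DMSO 3, the lowest sample, it was also 0.20. It was 0.35 without DSHN 1 and DMSO 1, and -0.54 after subtraction of the negative-control mean, where the count of DSHN 1 falls to the floor of 1. The interleukin 33 transcript itself was above background in 0 of 4 DSHN and 1 of 4 DMSO samples. Nearest in pattern were Eif4ebp2, a translation repressor, at 0.18 and Bcl10, an NF-kB adaptor, at 0.20, and without DSHN 1 and DMSO 1 they were Tlr5, the flagellin receptor, at 0.14 and Hip1r at 0.15.
Il1rl1 has 2 RefSeq starts in the table, and the window of the first, at chr1:40429320-40429569 on the plus strand, held 5 GATA words, the largest number among the 9 windows of these genes:
Il1rl1: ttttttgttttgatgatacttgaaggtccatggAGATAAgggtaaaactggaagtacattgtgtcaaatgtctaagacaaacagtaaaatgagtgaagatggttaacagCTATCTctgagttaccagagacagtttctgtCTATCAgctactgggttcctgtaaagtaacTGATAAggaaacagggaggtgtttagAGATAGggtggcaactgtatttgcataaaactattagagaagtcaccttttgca

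Il3ra, the alpha chain of the interleukin 3 receptor, on which basophils, mast cells and plasmacytoid dendritic cells depend for growth or survival signals, was above background in every sample but DSHN 1. Its scaled log2 levels were 7.18, 6.14, 6.41 and 6.17 in DSHN 1 to 4, against 7.18, 6.0, 5.96 and 6.40 in DMSO 1 to 4. In each group sample 1 was the highest, and the groups overlapped throughout. The means of 6.47 ± 0.48 in DSHN and 6.38 ± 0.57 in DMSO samples (SD, n = 4 each) differed by 0.09 ± 0.36 (SE), and without DSHN 1 and DMSO 1 by 0.12. The sign turned without DSHN 1, to -0.14, and with the negative-control mean subtracted, to -0.23. The interleukin 3 transcript was above background in 0 of 8 samples. Lst1, a myeloid leukocyte gene, was nearest in pattern at 0.12, and it was second, at 0.09, to the kinase gene Map2k2, at 0.08, without DSHN 1 and DMSO 1.

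Siglecf, the sialic acid-binding lectin of eosinophils and alveolar macrophages, was far above background in 6 of the samples. Its scaled log2 levels were 8.52, 7.93, 8.49 and 8.22 in DSHN 1 to 4, against 6.17, 8.59, 8.26 and 9.02 in DMSO 1 to 4. DMSO 1 was the lowest by a wide margin, at 56 counts or 2.08 times its limit, while DMSO 2 to 4 had 378 to 592 counts and DSHN 2 to 4 had 272 to 314. The groups overlapped, with a difference of 0.28 ± 0.54 (SE) between means of 8.29 ± 0.28 in DSHN and 8.01 ± 1.26 in DMSO samples (SD, n = 4 each). The sign depended on DMSO 1: without it the difference was -0.33, and without DSHN 1 and DMSO 1 it was -0.41. In bulk samples such as these, fewer cells of a type and less RNA per cell cannot be told apart.

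The gene nearest to Siglecf in pattern was Pparg, the nuclear receptor needed for alveolar macrophage development, at a distance of 0.19, followed by Cav1, which encodes caveolin 1, at 0.25, and then Itgax, at 0.25, against a median of 0.97. Pparg stood at 7.28, 7.34, 7.52 and 7.24 in DSHN 1 to 4, against 5.17, 7.64, 7.55 and 7.97 in DMSO 1 to 4, and Itgax, the CD11c chain, was at 7.53 in DMSO 1 and 9.06 to 9.87 in the other samples. Of the 7 alveolar macrophage markers on the panel other than Siglecf, 6 had their lowest DMSO value in DMSO 1, while Siglec1, a macrophage lectin, had its highest there, at 8.36 against 6.66 to 6.89 in the other DMSO samples. Without DSHN 1 and DMSO 1 the nearest genes were Lgals3, which encodes galectin 3, at 0.08 and Vrk2, a kinase gene above background in 2 of 8 samples, at 0.10. All alveolar macrophage markers on the panel, 8 of 8, were above background in at least 6 samples. The 7 of them other than Siglecf summed to 12.59 to 14.86 in DSHN and 12.90 to 14.72 in DMSO samples (log2 of summed scaled levels), a sum that is mostly Chil3.

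**Figure D2:**
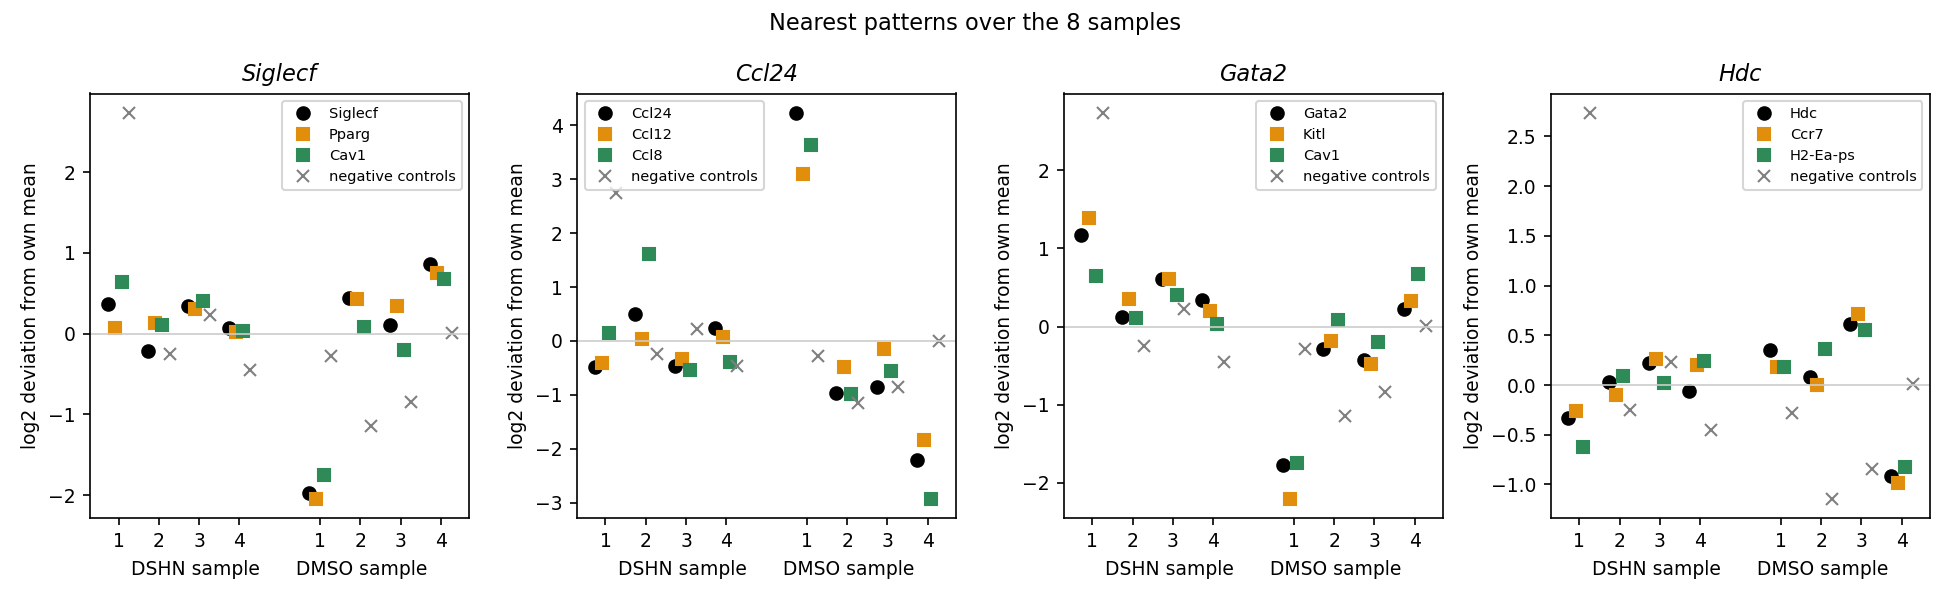
Log2 deviation of each sample from the gene's own mean over the 8 samples, for Siglecf, Ccl24, Gata2 and Hdc (black), the 2 genes nearest in pattern to each (orange and green) and the negative-control mean (grey crosses); DSHN samples are on the left of each panel and DMSO samples on the right. DMSO 1 is the lowest sample of Siglecf at 6.17 and of Pparg at 5.17, and the highest of Ccl24 at 11.41, Ccl12 at 9.69 and Ccl8 at 10.76.

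Eosinophil markers other than Siglecf and Ccr3 were present in part. Of the 8 on the panel, 4 were above background in all 8 samples, Siglecf, Prg2, Ear6 and Alox15. Prg2, the eosinophil major basic protein, stood at 10.44, 8.51, 9.92 and 8.82 in DSHN 1 to 4, against 7.58, 8.88, 9.21 and 9.53 in DMSO 1 to 4. DMSO 1 was again the lowest sample, and the groups overlapped. Epx, the eosinophil peroxidase, was above background in 0 of 8 samples and Prg3, a second basic protein, in 1. The 6 eosinophil markers that are not among the 8 genes summed to 9.69 to 12.14 in DSHN and 9.16 to 11.03 in DMSO samples. This sum, mostly Alox15 and Prg2, was highest in DSHN 1 and lowest in DMSO 1. Prg2, Alox15 and Epx were each lowest in DMSO 1, but Ear6 and Il5ra were lowest in DSHN 4 and Prg3 in DSHN 2. Il5ra, the interleukin 5 receptor chain of eosinophils, differed by 0.69 ± 0.76 (SE) with all samples and by -0.20 without DSHN 1 and DMSO 1. The part of eosinophil or alveolar macrophage content in the differences of Siglecf and Ccr3 was not tested.

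**Figure D3:**
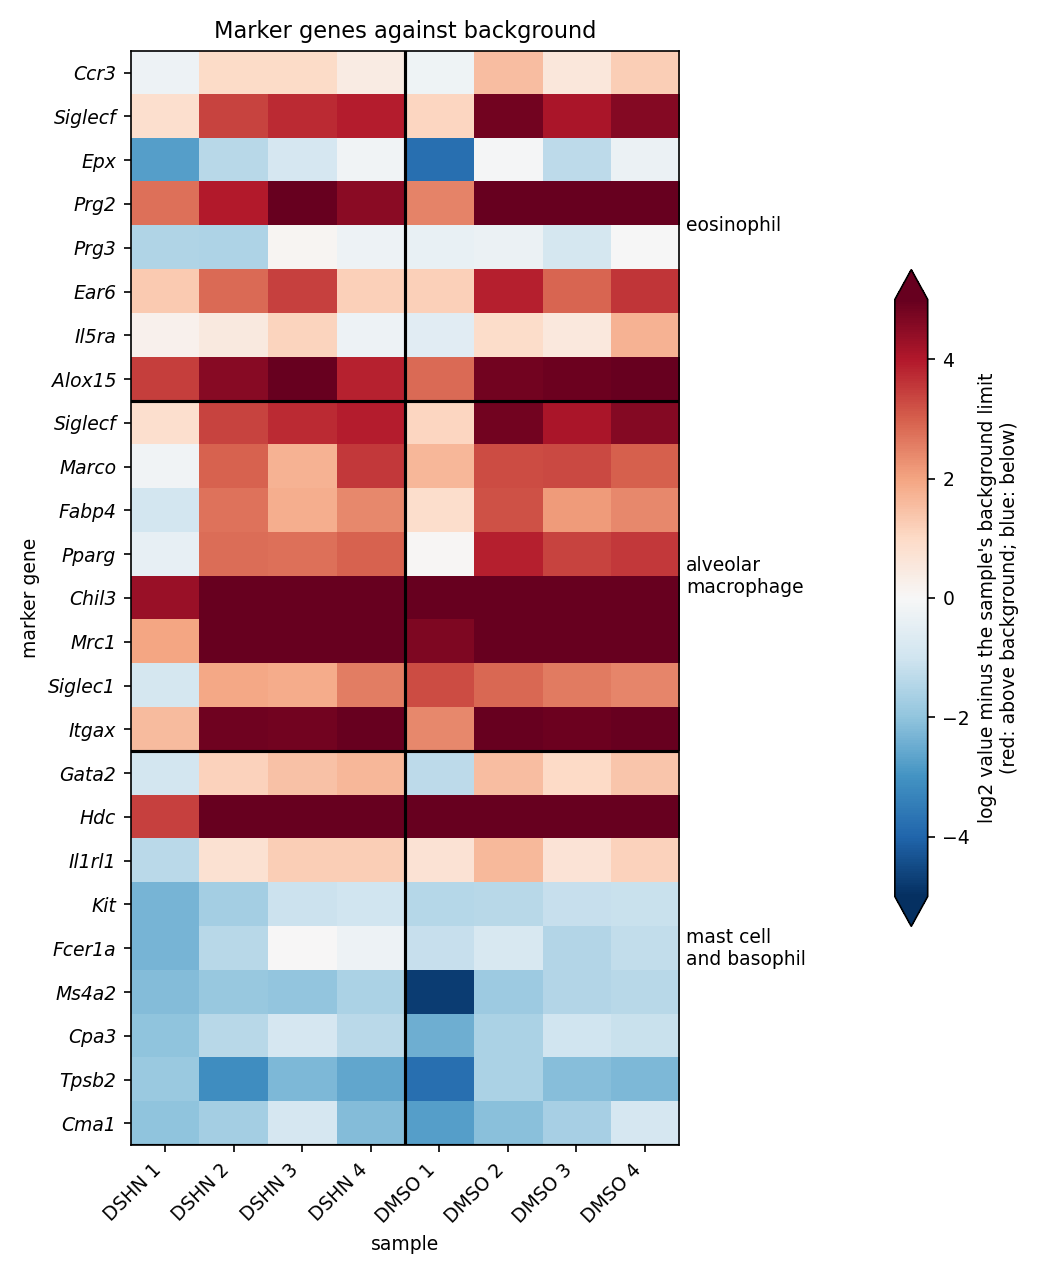
Marker genes of eosinophils (top), alveolar macrophages (middle) and mast cells and basophils (bottom) in each sample, DSHN on the left and DMSO on the right, as log2 level minus the background limit of the sample; red is above background, blue is below, and the colour scale is capped at both ends. Among mast cell and basophil markers, Hdc, Gata2 and Il1rl1 are above background in 8, 6 and 7 samples, while Kit, Ms4a2, Cpa3, Tpsb2 and Cma1 are above it in 0.

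Gata2, the transcription factor that mast cells, basophils and their progenitors need, had the second largest difference of the 8 genes after Il13 with all samples, and the third after Ccl24 and Il13 without DSHN 1 and DMSO 1. Its scaled log2 levels were 6.77, 5.72, 6.20 and 5.94 in DSHN 1 to 4, against 3.82, 5.31, 5.16 and 5.82 in DMSO 1 to 4. DSHN 1 at 21 counts and DMSO 1 at 11 counts were under their limits, and these were also the highest and the lowest value. The other samples had 56 to 64 counts in DSHN and 44 to 61 counts in DMSO samples, and the groups overlapped. The means of 6.16 ± 0.45 in DSHN and 5.02 ± 0.85 in DMSO samples (SD, n = 4 each) differed by 1.13 ± 0.45 (SE). The negative-control mean differed by as much, at 1.13. After the negative-control mean was subtracted from the counts, the difference of Gata2 was 1.09 ± 0.78 (SE). The mean subtracted was 16.6 counts in DSHN 1 and 8.25 in DMSO 1. What is left in these samples cannot be told from background, so this value does not separate Gata2 from it. Without DSHN 1 and DMSO 1 the difference was 0.53, with 5.95 ± 0.24 in DSHN and 5.43 ± 0.34 in DMSO samples (SD, n = 3 each). The pattern of the negative-control mean lay at a distance of 0.90 from that of Gata2 over all 8 samples, with 265 of 553 genes nearer, and at 0.23 in these 6 samples, with 15 nearer. Kitl, the ligand of the mast cell receptor Kit, was nearest over all 8 samples, at 0.20. It was above background in 6 of 8 samples. Like Gata2 it was under the limit in DSHN 1, at 6.28, and in DMSO 1, at 2.68. Without DSHN 1 and DMSO 1 the nearest gene was Batf3, a transcription factor of dendritic cells, at 0.07.

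Hdc, the enzyme that makes histamine, is used by mast cells and basophils and, in mice, also by neutrophils and immature myeloid cells. It was the best measured of the 8 genes, with 423, 3126, 2784 and 2421 counts in DSHN 1 to 4, against 2735, 4481, 5198 and 1574 counts in DMSO 1 to 4. Scaled log2 levels were 11.10, 11.45, 11.64 and 11.37 in DSHN samples, against 11.78, 11.51, 12.04 and 10.51 in DMSO samples. DMSO 4 was the lowest and DMSO 3 the highest, so that all DSHN samples fell inside the range of DMSO samples. The means of 11.39 ± 0.23 in DSHN and 11.46 ± 0.67 in DMSO samples (SD, n = 4 each) differed by -0.07 ± 0.32 (SE). Leaving out 1 sample at a time the difference ran from -0.39, without DMSO 4, to 0.13, without DMSO 3, and without DSHN 1 and DMSO 1 it was 0.14.

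Of the mast cell and basophil markers on the panel, 9 in all, the 3 among the 8 genes were above background in 6 or more samples. The other 6 were near the negative controls: Kit, Ms4a2, Cpa3, Tpsb2 and Cma1 in 0 of 8 samples above background and Fcer1a, the IgE receptor alpha chain, in 1. Hdc was nearest in pattern to Ccr7, the receptor that guides mature dendritic cells to lymph nodes, at 0.13. Next was H2-Ea-ps, a gene of the MHC class II family, at 0.21. Ccr7 remained the nearest gene without DSHN 1 and DMSO 1, at 0.13. Of 7 neutrophil markers, 5 were above background in all 8 samples and Mpo and Elane in 0, and the list, mostly S100a8 and S100a9, summed to 16.07 to 17.24 in DSHN and 16.33 to 17.75 in DMSO samples. The part of any cell type in the level of Hdc was not tested.

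Taking the 8 genes as a list, 6 had a higher mean in DSHN and 2, Ccl24 and Hdc, a lower one, with a median difference of 0.34 (log2). Over the 554 genes tested the mean was higher in DSHN for 53.4% and the median difference was 0.03. In limma, fitted over the whole panel with Benjamini-Hochberg adjustment, 0 of the 8 genes and 0 of 554 genes (0%) passed an adjusted p of 0.05, while 20 of the 554 had an unadjusted p under 0.05. With the negative-control mean subtracted, 4 of the 8 genes were higher and the median was 0.09, beside -0.20 over the panel. Scaled to 3 housekeeping genes, without Tubb5, all 8 were higher, beside 400 of the 554 genes, the median was 0.51 and that of the panel 0.20. Without DSHN 1 and DMSO 1, 7 of the 8 were higher, with Siglecf as the exception, beside 330 of the 554 genes, and the median was 0.24, beside 0.06 over the panel.

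**Figure D4:**
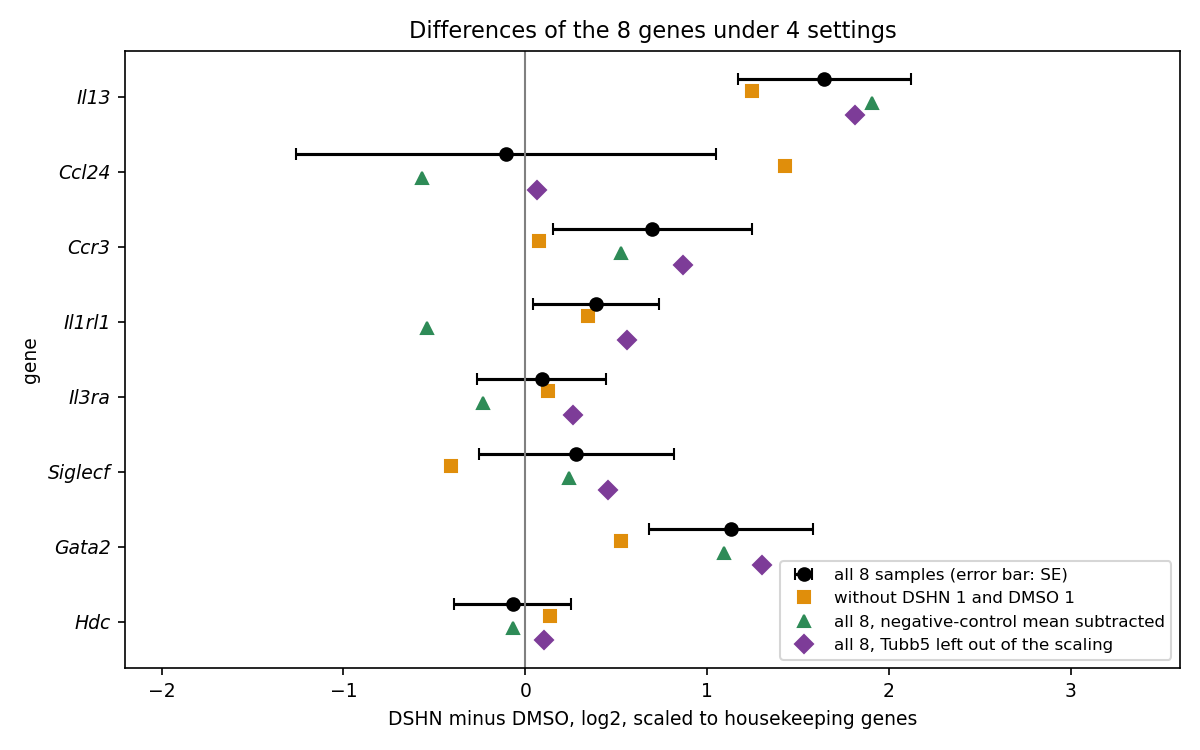
Difference of each gene, DSHN minus DMSO, in log2 values scaled to housekeeping genes, with all 8 samples (black, with SE), without DSHN 1 and DMSO 1 (orange), with the negative-control mean subtracted (green) and with scaling to the 3 housekeeping genes other than Tubb5 (purple). Il13 lies between 1.25 and 1.91 and Gata2 between 0.53 and 1.30 in all 4 settings, while Ccl24 lies between -0.57 and 1.43.

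Other genes of the type 2 pathway were taken from a list of 45, of which 33 were on the panel and 19 were tested. None of the 19 passed (0 of 19, limma, adjusted p of 0.05), and 2 had an unadjusted p under 0.05, Ccl22 and Csf2, of which Csf2 was above background in 5 of 8 samples. The mean was higher in DSHN for 13 and lower for 6, and the median difference was 0.37, beside 0.03 over all genes tested. Without DSHN 1 and DMSO 1 the median was 0.19, beside 0.06 over all genes tested. With the negative-control mean subtracted it was 0.02, beside -0.20 over all genes tested.

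The cytokines of the pathway were mostly not measurable. Il4 was above background in 1 of 4 DSHN and 0 of 4 DMSO samples, and Il5 and the eotaxin Ccl11 in 0 of 8. Of the transducers, Il4ra, the receptor chain shared by interleukins 4 and 13, was above background in all 8 samples and differed by 0.24 ± 0.19 (SE), and Stat6, the transcription factor it activates, differed by -0.07 ± 0.21. Gata3, the T helper 2 transcription factor, was above background in 0 of 4 DSHN and 1 of 4 DMSO samples.

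Among the downstream genes, the chemokines Ccl22 and Ccl17, which act on the receptor CCR4, differed by 0.81 ± 0.33 and 0.60 ± 0.37 (SE). Ccl22 stood at 8.25 in DSHN and 7.44 in DMSO samples as group means. Retnla, a secreted protein of alternatively activated macrophages, differed by 0.92 ± 0.61, Hpgds, a prostaglandin D synthase, by 0.76 ± 0.41 and Irf4, a transcription factor of macrophages and dendritic cells, by 0.37 ± 0.27. The differences without DSHN 1 and DMSO 1 were 1.48 for Retnla, 0.34 for Hpgds and 0.15 for Irf4, and 0.75 for Ccl22 and 0.62 for Ccl17. Of other genes of alternatively activated macrophages on the list, Arg1 differed by -0.88 ± 1.54, with 1.48 without DSHN 1 and DMSO 1, the mannose receptor gene Mrc1 by -0.11 ± 0.33 and Chil3 by 0.01 ± 0.63 (SE). The lowest adjusted p over the 554 genes was 0.925 (limma).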

How the data were processed

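The deposited table gives log2 values rounded to 2 decimals for 754 genes, 6 positive and 8 negative controls in 8 samples. How the authors computed them is not stated in the sources used. Control probes were whole counts, and low gene values (under 40 counts) were whole multiples of 1 step per sample within 0.005 (log2), so gene values carry a spike-in factor of 0.604 to 6.83 and no housekeeping scaling. Counts were recovered by dividing by this factor and are exact for low values only. Values were then scaled to the mean log2 of Oaz1, Ppia, Rpl19 and Tubb5, which assumes that these did not respond.

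DSHN was compared with DMSO in limma 3.58.1 (R 4.3.3), with a variance trend and no covariate, on 554 genes deposited at 20 or higher on the linear scale in 4 samples or more, with Benjamini-Hochberg adjustment at 0.05. The code was tested on simulated data. The 8 genes, the lists and the tests were chosen with earlier results of these data known. Genes named beside the 8 followed a rule: list members above background in at least 6 samples with the smallest p, a fixed set of pathway genes, the highest 2 markers of a list, and the 2 nearest patterns; Prg2, Epx, Xcr1, Cd74 and other markers were named outside it, after their values were seen. Each sample is a pool of separate mice and counts as 1 replicate. Gene symbols were used as deposited, and 744 of 754, all 8 genes included, matched the RefSeq table of GRCm38.p6, as did 9 through a synonym. Alternatives are given in the closing section.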

Additional observations from a re-analysis of the deposited data

Results flagged for a closer look

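In groups of 4 samples, the highest or lowest value of each of the 8 genes, the 4 housekeeping genes, the negative-control mean and the mean of the 8 genes was set against the rest of its group, and 2 of 28 groups held a sample far from the others. Chance alone marks about 1 in 20 groups. Both concerned housekeeping genes in DMSO 1. Rpl19 stood at 12.44 there, against 11.87 to 11.95 in the other DMSO samples, and Tubb5 at 8.68, against 9.88 to 10.08. These are 2 of the 4 genes behind the scaling. The scaling makes the mean of the 4 genes equal in all samples, so a low Tubb5 raises the other 3. The 2 flags are therefore not separate, and their opposite sides are no result of their own. Scaled to the other 3 housekeeping genes, the differences of Ccl24 and Hdc were 0.07 and 0.10, on the other side of 0 from -0.11 and -0.07.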

How the results depend on the processing

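Under 17 alternatives to the fit over the panel, 0 genes passed and 0 of the other type 2 pathway genes passed; the number of genes at an unadjusted p under 0.05 was 20 with the main settings, 196 on deposited values, 40 without a filter on low values, 25 with Tubb5 left out, 17 after median centring, 12 with background subtracted, 11 with a replicate block and 4 among genes above background in all 8 samples. Leaving out 1 sample at a time it was 11 to 28. The replicate numbers showed no sign of pairing. Deviations of same-numbered samples correlated at -0.18, 0.14, 0.02 and -0.29, and those of differently numbered samples at -0.33 to 0.32. These values cannot show whether samples of 1 number were handled together. With the replicate block 0 genes passed. The median difference of the 8 genes was 0.34 and ranged from 0.18 to 0.57 when 1 sample was left out, and was -1.57 on deposited values, where no scaling removes the shift of the whole panel (median -1.87). The negative-control difference was 1.13, ranged from 0.41 to 1.47 when 1 sample was left out, and turned to -0.77 on deposited values through the same shift. Without 1 sample the smallest p that its exact test can give is 0.0571. Il13, Gata2 and Ccr3 kept their sign in all 15 alternatives on a scaled basis in which they could be fitted. Ccl24 and Hdc turned in 5 each, Il3ra in 4, Siglecf in 2 and Il1rl1 in 1. Dropping the filter on low values or the variance trend, or adding the replicate block, cannot change a difference, only its error. In those settings the sign was fixed in advance. Among genes above background in all 8 samples Siglecf and Hdc alone could be fitted. With the limit at the mean of the negative controls 31 of 32 member values were above it in DSHN and 32 of 32 in DMSO samples, beside 81.0% of all gene values in DSHN and 84.5% in DMSO samples. The depth of DSHN 1 limits the reading of the other 6 genes there. The settings that leave out sample 1 of each group for background counts and nearest patterns were chosen after seeing the data.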
